A study of Homo sapiens with 22 samples.

Results

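The genes described here encode 6 Toll-like receptors, TLR1, TLR2, TLR4, TLR5, TLR6 and TLR8, and 4 proteins that work with or resemble them, CD14, LY96 (MD-2), CD180 (RP105) and LY86 (MD-1). They were chosen by symbol, with earlier results of these data known, and the 10 genes are 10 of the 28063 gene symbols counted in each library. The study sequenced polyadenylated RNA from 3 human acute myeloid leukaemia lines, MOLM-13, MV-4-11 and THP-1, all labelled WT, in 11 groups of 2 libraries. In each line, cells received 1 µM BRM014 for 24 h, 1 µM BRM014 for 72 h, or the solvent DMSO. BRM014 inhibits SMARCA4 and SMARCA2, the motor subunits of the SWI/SNF chromatin remodellers. Only THP-1 cells also received 10 nM PMA, a phorbol ester used to push monocytic cells towards macrophages, for 48 h with a further 24 h after its removal, or 3 µM DB2313, an inhibitor of the myeloid transcription factor PU.1, for 72 h. The lines are grown in suspension from leukaemic blood and carry KMT2A fusions, so each is a single transformed population and not a sample of normal monocytes.

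The labels give no culture time for the DMSO libraries, so 1 DMSO group per line served both BRM014 times, and an effect of BRM014 cannot be told apart from one of time in culture. Nor do they place the DB2313, PMA and DMSO libraries of THP-1 in 1 round of preparation, so a difference in preparation and the treatment cannot be told apart. No label says that the 2 libraries of a group came from separate cultures, so the p-values measure a spread that may be purely technical. In bulk RNA, fewer cells that express a gene and less RNA of it per cell cannot be told apart.

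Toll-like receptors are membrane proteins whose leucine-rich outer part recognises microbial molecules and whose inner TIR domain recruits adaptors such as MYD88, leading to NF-κB activation and cytokine genes. TLR4 recognises lipopolysaccharide only together with LY96, and CD14, which is anchored to the membrane by a lipid tail, hands lipopolysaccharide to that pair. TLR2 pairs with TLR1 to sense triacylated lipoproteins and with TLR6 to sense diacylated ones, TLR5 senses flagellin, and TLR8 senses RNA fragments inside endosomes. CD180 is a receptor related to TLR4 that lacks the TIR domain and is held at the cell surface by LY86, much as TLR4 is by LY96. In mice, CD180 with LY86 has been shown to restrain TLR4 signalling in myeloid cells. Monocytes carry most of these proteins, and CD14 is the usual surface marker for them.

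Each library held 15893489 to 21565666 reads in genes, spread over 15889 to 18937 detected genes. Levels are given as CPM, the count scaled to a fixed total of reads in genes. Where a library has no read of a gene, a true level of up to 0.139 to 0.189 CPM (3 counts) remains possible from counting error. The 8 myeloid markers examined, including SPI1 (the gene of PU.1), CD33 and LYZ, were all detected in every group, but their levels moved with treatment. LYZ, the gene of lysozyme, was at 91.9 and 96.3 CPM in THP-1 BRM014 72 h libraries, against 1934 and 1755 CPM in THP-1 DMSO libraries. There CSF1R, the receptor for macrophage colony-stimulating factor, was at 1.71 and 1.78 CPM, against 100.1 and 91.0 CPM in DMSO libraries. SPI1 was at 55.1 and 52.6 CPM in the same BRM014 libraries, against 299 and 312 CPM in DMSO libraries, while CD68 was at 671 and 708 CPM, against 327 and 343 CPM. In MV-4-11, CSF1R was at 0.174 and 0 CPM after 72 h of BRM014, against 2.56 and 2.83 CPM in DMSO libraries. SPI1, CD33, LYZ, MPO and CSF3R were lower there too. CEBPA was at 732 and 779 CPM there, against 362 and 350 CPM, and CD68 at 653 and 658 CPM, against 204 and 201 CPM. The sum of the 8 myeloid markers was 1796 to 1821 CPM there, against 1427 to 1442 CPM. At 72 h it was 3700 to 3786 CPM in MOLM-13, against 1733 to 1924 CPM, and 1513 to 1596 CPM in THP-1, against 3248 to 3410 CPM. The MOLM-13 markers moved both ways, with CEBPA, CD68, LYZ and CSF3R above DMSO libraries and SPI1, CD33, MPO and CSF1R below. MPO was at 8.10 and 5.96 CPM there, against 167 and 168 CPM, and CEBPA at 1786 and 1665 CPM, against 671 and 804 CPM. Compared with THP-1 DMSO libraries, DB2313 libraries had less LYZ (60.9 and 60.7 CPM) and less CD68. CD33, MPO, CSF1R, CSF3R and CEBPA were higher there, and SPI1 overlapped DMSO. With PMA, LYZ (8300 and 8432 CPM), SPI1, CD33, CSF1R and CD68 were higher than in DMSO libraries. MPO and CEBPA were lower there, and CSF3R overlapped DMSO. The PMA libraries differed from each other more than those of any other group, and 9 of the 10 genes were lower in its replicate 2, with LY86 higher. Some markers of other cell types moved too. The summed level of 7 epithelial and fibroblast markers was 150 to 153 CPM in THP-1 BRM014 72 h libraries, against 0.501 to 0.792 CPM in THP-1 DMSO libraries. It consisted mainly of COL1A1 and CDH1, with KRT5, KRT14, COL3A1 and LUM at 0. In MV-4-11 the same sum was 33.1 to 34.1 CPM in BRM014 72 h libraries, against 2.40 to 3.06 CPM in DMSO libraries, mainly from LUM, with EPCAM, KRT5, KRT14 and COL3A1 at 0. The summed level of 6 erythroid and megakaryocyte markers was 140 to 152 CPM in DB2313 libraries, against 1.04 to 1.25 CPM in THP-1 DMSO libraries. Nearly all of it was ITGA2B, with HBB, HBA1 and PF4 at 0. The part of these transcripts in the results below was not tested.

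The promoters of 4 genes are shown because these genes make up the contrast on which the results turn: CD14 rose in 4 of 6 BRM014 comparisons while CD180 and LY86 fell in all 6, and TLR4 fell in all lines at 24 h but moved in opposite directions between lines at 72 h. Each runs 5′ to 3′ along the gene's own strand over 300 bases around the RefSeq start (GRCh38.p14), most of them before it. Capitals mark matches, on either strand, to the PU.1 core GAGGAAG, to a C/EBP pattern TTGCNNAA, or to an AP-1 pattern TGANTCA. The windows are chr5:140633126-140633425, minus strand, for CD14, chr9:117704153-117704452, plus strand, for TLR4, chr6:6588470-6588769, plus strand, for LY86, and chr5:67196750-67197049, minus strand, for CD180. In GENCODE v29 the gene models start at 140633701 for CD14, 117704175 for TLR4, 6588108 for LY86 and 67196799 for CD180. By those starts the CD14 and LY86 windows lie wholly inside the gene, and nearly all of the TLR4 window does. The 2 annotations thus differ on where these 3 genes start.
CD14: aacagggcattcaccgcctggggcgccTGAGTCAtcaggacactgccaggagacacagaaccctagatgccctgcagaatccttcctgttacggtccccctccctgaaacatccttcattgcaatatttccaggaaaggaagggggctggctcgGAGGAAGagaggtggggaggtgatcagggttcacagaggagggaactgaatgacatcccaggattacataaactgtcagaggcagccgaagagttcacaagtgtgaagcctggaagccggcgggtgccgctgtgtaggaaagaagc
TLR4: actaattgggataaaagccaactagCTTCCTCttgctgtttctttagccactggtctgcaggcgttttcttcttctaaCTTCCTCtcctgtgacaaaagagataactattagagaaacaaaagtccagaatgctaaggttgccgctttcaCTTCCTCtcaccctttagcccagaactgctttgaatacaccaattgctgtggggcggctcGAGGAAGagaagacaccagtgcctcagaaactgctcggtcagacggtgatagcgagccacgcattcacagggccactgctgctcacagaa
LY86: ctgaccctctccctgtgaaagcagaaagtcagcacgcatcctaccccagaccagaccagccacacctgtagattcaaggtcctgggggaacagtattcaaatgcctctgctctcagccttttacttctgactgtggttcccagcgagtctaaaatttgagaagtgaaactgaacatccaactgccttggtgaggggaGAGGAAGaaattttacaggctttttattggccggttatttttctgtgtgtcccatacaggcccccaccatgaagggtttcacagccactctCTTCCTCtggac
CD180: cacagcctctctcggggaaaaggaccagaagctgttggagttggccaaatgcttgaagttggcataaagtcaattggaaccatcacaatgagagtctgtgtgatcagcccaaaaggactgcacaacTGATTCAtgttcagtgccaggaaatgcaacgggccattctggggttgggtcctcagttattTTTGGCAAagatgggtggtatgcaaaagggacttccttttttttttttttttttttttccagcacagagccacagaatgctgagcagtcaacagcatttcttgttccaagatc

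Positions count from the RefSeq start, with a minus sign before it. The CD14 window held 1 PU.1 core, at -96, and 1 AP-1 match at -223. The TLR4 window held 4 PU.1 cores, at -225, -172, -100 and -40. LY86 had 2, at -53 and at 39, the second after the RefSeq start. CD180 had no GAGGAAG in this window, 1 C/EBP match at -63 and 1 AP-1 match at -124. Among all 35116 promoters of the same length, GAGGAAG occurred in 13.6%, TTGCNNAA in 10.5% and TGANTCA in 7.71%. A match is a run of letters and not a measured binding site. Of the other genes, TLR6 had a PU.1 core at -196 and TLR8 a C/EBP match at -108, while the TLR2 and TLR5 windows had no match to the 3 patterns. Promoters were matched for 8 of the 10 genes, without TLR1 and LY96.

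**Figure D1:**
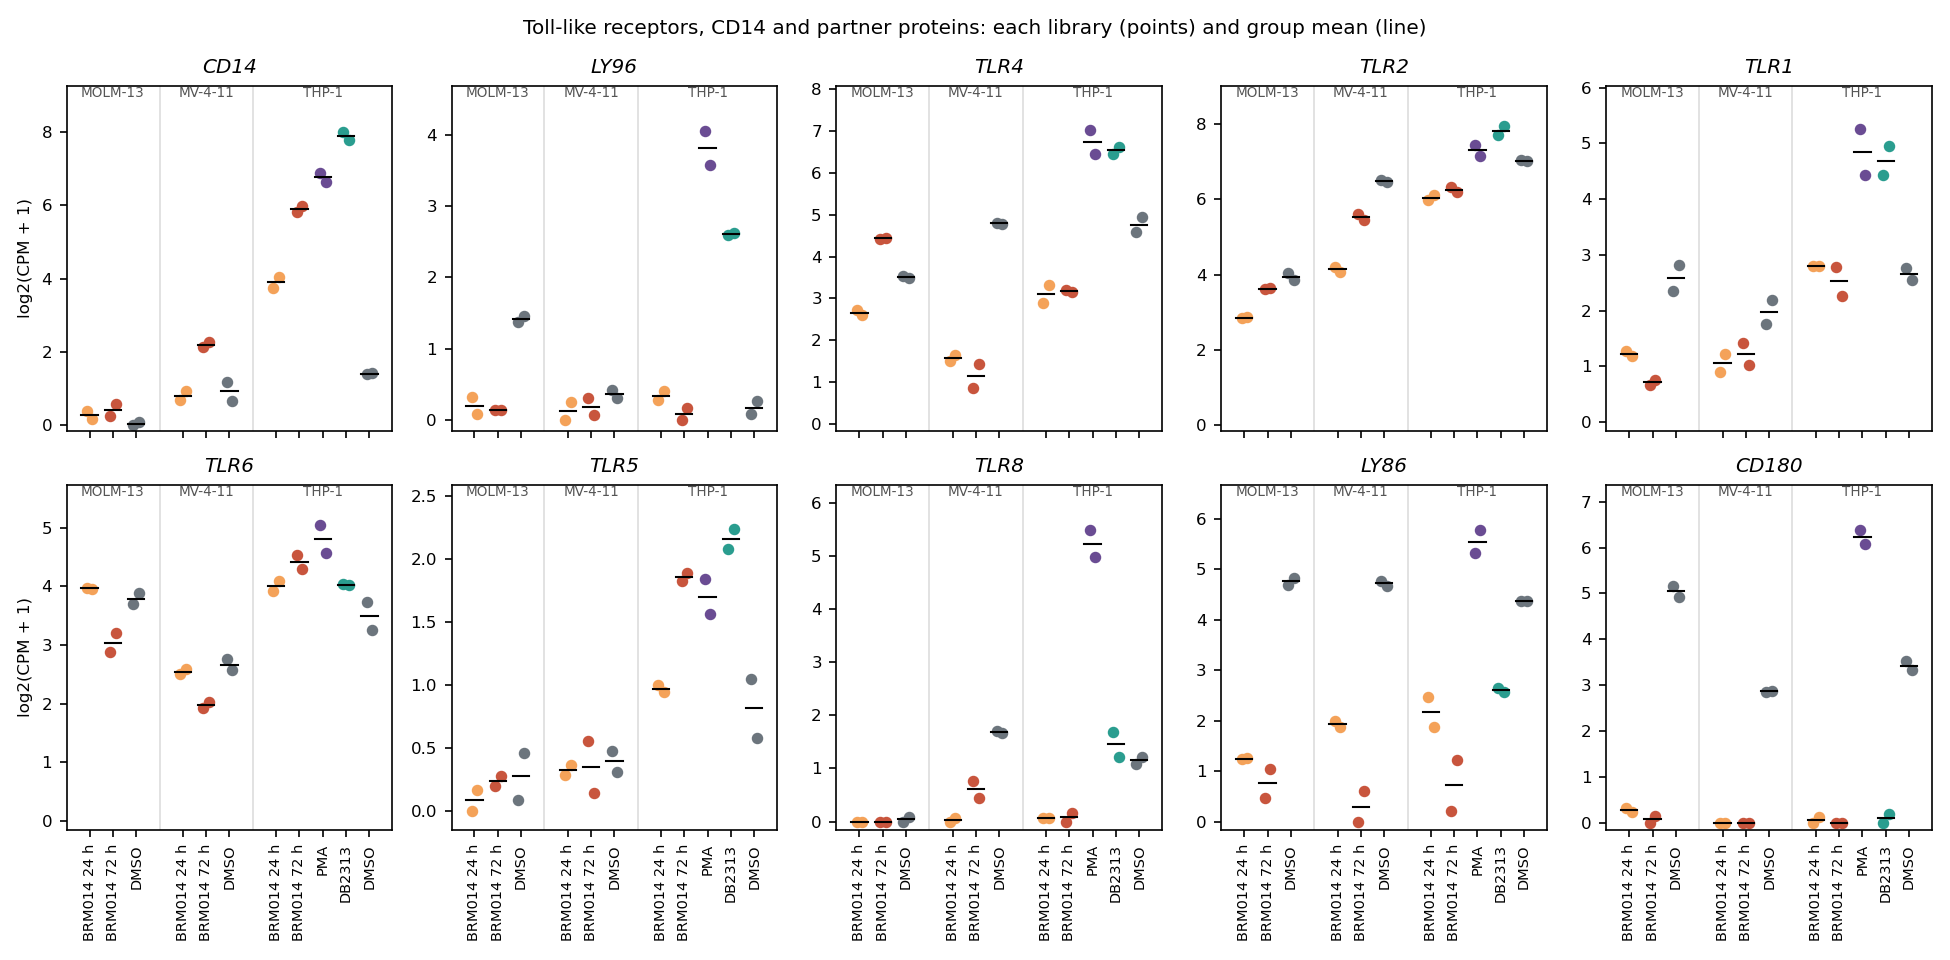
Level of each gene in every library, as log2(CPM + 1), by line and treatment; points are libraries and the line is the mean of 2. CD14 rises in THP-1 across BRM014 24 h, BRM014 72 h, PMA and DB2313, while CD180 and LY86 lie below DMSO under BRM014 in every line and are highest under PMA.

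All 10 genes passed the filter on low counts, which a gene can pass through a few groups in which it is high. TLR5, TLR8, LY96 and CD14 were highest in THP-1 groups and near 0 in some others. So the number tested is no evidence of expression in every line. Calls below are those with an adjusted p under 0.05 in edgeR's quasi-likelihood test, with Benjamini-Hochberg adjustment over 16794 genes. Under BRM014 more of the 10 genes were lower than higher in each comparison. In MOLM-13, 6 were lower and 0 higher at 24 h (46.2% of all genes tested were called, 23.5% lower), and 6 were lower and 2 higher at 72 h (59.7% called, 29.4% lower and 30.3% higher). In MV-4-11, 6 were lower and 0 higher at 24 h (46.1% called, 22.4% lower), and 7 were lower and 1 higher at 72 h (54.5% called, 26.1% lower and 28.4% higher). In THP-1, 5 were lower and 2 higher at 24 h (50% called, 24.1% lower and 25.9% higher), and 5 were lower and 3 higher at 72 h (58.9% called, 28% lower and 30.9% higher). The share of the 10 genes called in either direction was above the share of all genes in each of these comparisons, and the excess was on the lower side. Because the genes were chosen with earlier results of these data known, this excess is a description and not a test.

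The median log2 fold change of the members with a usable fold, with genes at 0 set to their bound and genes with 1 to 3 counts to their CPM ratio, was -1.80 in MOLM-13, -1.99 in MV-4-11 and -0.46 in THP-1 at 24 h. The 72 h medians were -1.01 in MOLM-13, -1.13 in MV-4-11 and -1.06 in THP-1. That of all genes tested lay between 0 and 0.06 in these 6 comparisons. With PMA, 10 of the 10 genes were higher (36.1% of all genes were called, 18.9% higher), and their median log2 fold change was 2.32, against -0.02 for all genes. With DB2313, 7 were higher and 2 lower (65.4% called, 35.9% higher and 29.5% lower), and the median was 1.23, against 0.14 for all genes. CD180, LY86 and TLR2 were lower in all 6 BRM014 comparisons, TLR4 was lower in 5 and higher in 1, and CD14 was higher in 4 and lower in 0. These comparisons share the DMSO libraries of a line, and the share of all genes called the same way across them was not counted.

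**Figure D2:**
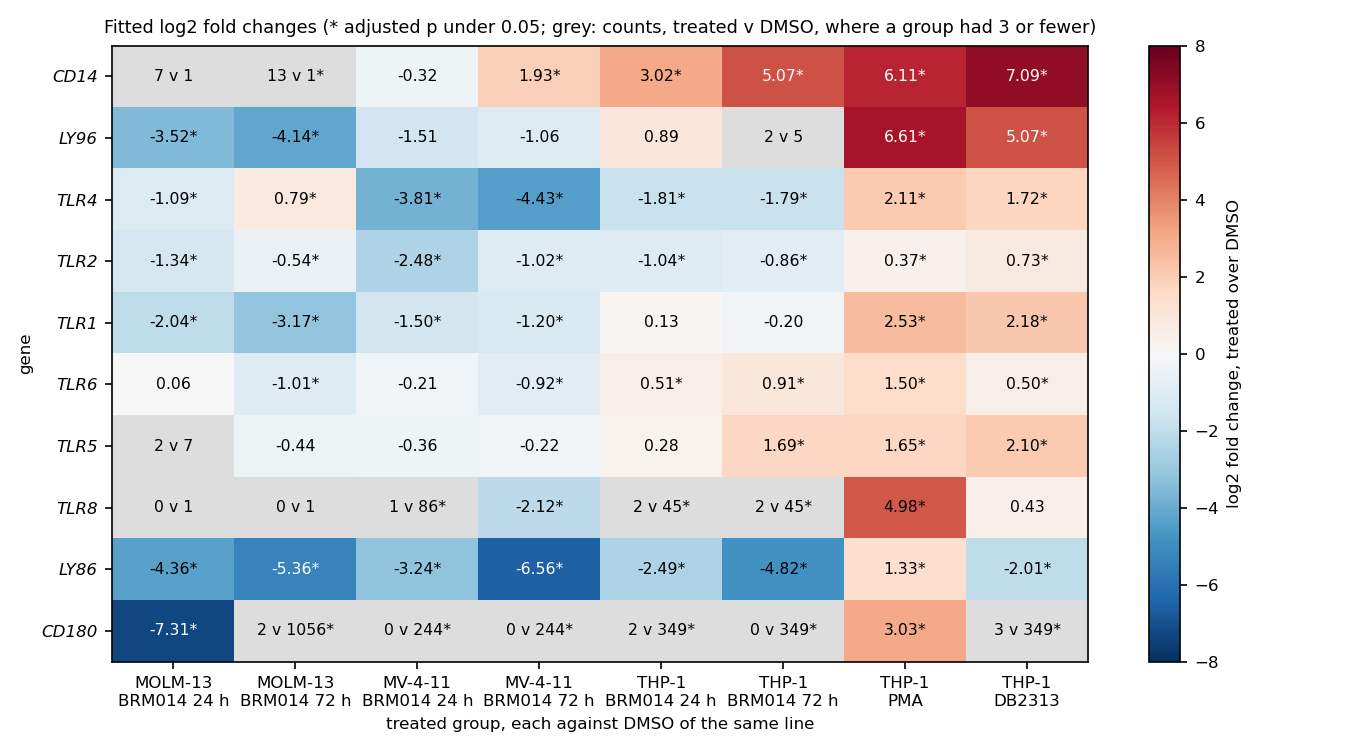
Fitted log2 fold change of each gene, treated over DMSO of the same line, with an asterisk where the adjusted p was under 0.05. Grey cells give the summed counts, treated before DMSO, where a group had 3 counts or fewer, and no fitted fold is read there; the PMA column is the only one in which every gene is higher.

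CD14 (ENSG00000170458.13, chromosome 5, 140631728 to 140633701, minus strand) rose in THP-1 under BRM014, in which most of the other members fell or were not called. It was at 12.4 and 15.5 CPM after 24 h of BRM014 and at 56.0 and 62.7 CPM after 72 h, against 1.63 and 1.68 CPM in DMSO libraries. No library of these 3 groups overlapped another group. The log2 fold change over DMSO was 3.02 ± 0.23 (SE, adjusted p = 8.95e-10) at 24 h and 5.07 ± 0.21 (adjusted p = 5.79e-14) at 72 h. In MV-4-11, CD14 was at 3.37 and 3.79 CPM after 72 h, against 1.28 and 0.575 CPM in DMSO libraries, a log2 fold change of 1.93 ± 0.31 (adjusted p = 1.91e-05), or 2.56 without DMSO replicate 1. At 24 h the MV-4-11 groups overlapped, with 0.595 and 0.903 CPM in BRM014 libraries (log2 fold change -0.32 ± 0.42, adjusted p = 0.581).

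MOLM-13 was almost without CD14 transcript. It had 5 and 2 counts in BRM014 24 h libraries and 4 and 9 counts in BRM014 72 h libraries, against 0 and 1 counts in DMSO libraries. The CPM ratio to DMSO was 7.04 at 24 h (95% counting interval 0.904 to 317) and 10.9 at 72 h (1.64 to 464). The 72 h difference was called (adjusted p = 0.0283), but not without BRM014 72 h replicate 2 or without DMSO replicate 1 (adjusted p = 0.194 in each case). Without DMSO replicate 2 the remaining DMSO library had no CD14 read (adjusted p = 0.0371). In THP-1 the highest CD14 levels came with DB2313, at 258 and 220.0 CPM, and PMA gave 118 and 99.0 CPM, both above every DMSO library. The log2 fold changes over DMSO were 7.09 ± 0.21 (adjusted p = 5.22e-16) with DB2313 and 6.11 ± 0.20 (adjusted p = 8.45e-15) with PMA. The order of the 11 group means was therefore DB2313, PMA, BRM014 72 h and BRM014 24 h in THP-1, then MV-4-11 BRM014 72 h and THP-1 DMSO, with no overlap between neighbours among these 6. Below them MV-4-11 DMSO overlapped MV-4-11 BRM014 24 h, and MOLM-13 BRM014 72 h overlapped MOLM-13 BRM014 24 h.

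TLR4 (ENSG00000136869.14, chromosome 9, 117704175 to 117724730, plus strand), the lipopolysaccharide receptor that CD14 serves, moved the other way from CD14 under BRM014 in THP-1. It was at 6.48 and 8.95 CPM after 24 h and at 8.24 and 7.91 CPM after 72 h, against 22.9 and 29.6 CPM in DMSO libraries. Both BRM014 groups lay wholly below DMSO and overlapped each other. The log2 fold changes were -1.81 ± 0.19 (adjusted p = 1.16e-07) and -1.79 ± 0.19 (adjusted p = 1e-07). MV-4-11 showed the deepest fall, with 1.84 and 2.14 CPM after 24 h and 0.815 and 1.71 CPM after 72 h, against 27.0 and 26.4 CPM in DMSO libraries. The log2 fold change there was -3.81 ± 0.23 (adjusted p = 3.89e-11) at 24 h and -4.43 ± 0.25 (adjusted p = 6.4e-12) at 72 h, or -5.08 at 72 h without BRM014 replicate 2.

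In MOLM-13, TLR4 fell at 24 h and rose at 72 h. It was at 5.65 and 5.04 CPM in BRM014 24 h libraries and at 20.4 and 20.9 CPM in BRM014 72 h libraries, against 10.7 and 10.2 CPM in DMSO libraries. The 3 groups did not overlap, and the log2 fold change over DMSO was -1.09 ± 0.22 (adjusted p = 3.44e-04) at 24 h and 0.79 ± 0.19 (adjusted p = 0.00109) at 72 h. Between the BRM014 times it was 1.88 ± 0.21 (72 h over 24 h, adjusted p = 2.51e-07). PMA gave 129 and 85.5 CPM and DB2313 gave 86.5 and 96.8 CPM in THP-1, both above DMSO, with log2 fold changes of 2.11 ± 0.17 (adjusted p = 4.16e-09) and 1.72 ± 0.17 (adjusted p = 1.98e-08). TLR4 exons share 558 bases with another gene model on the same strand, AL160272.2, which is not among the counted symbols, so reads of that model could be counted as TLR4.

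Per kilobase of exon, CD14 transcript exceeded TLR4 transcript 47.9- and 55.8-fold in THP-1 BRM014 72 h libraries and 13.5- and 12.2-fold in BRM014 24 h libraries, against 0.501- and 0.399-fold in DMSO libraries. The ratio was 6.41 and 8.15 with PMA and 21.0 and 16.0 with DB2313. In MV-4-11 it was 2.28 and 2.97 in BRM014 24 h libraries, and 29.2 and 15.6 in BRM014 72 h libraries, against 0.334 and 0.153 in DMSO libraries. So the length-scaled balance between CD14 and TLR4 lay above 1 in every BRM014 library of THP-1 and MV-4-11, and below 1 in every DMSO library of both. Crossing 1 depends on the exon lengths used, 13272 bases for TLR4 and 1886 bases for CD14. Without that scaling, CD14 lay below TLR4 in MV-4-11 BRM014 24 h libraries (0.595 and 0.903 CPM, against 1.84 and 2.14 CPM). In that comparison with DMSO, TLR4 was called lower and CD14 was not called. In MOLM-13 it was below 1 throughout, at 0.387 and 0.170 in BRM014 24 h libraries and 0.0682 and 0.162 in BRM014 72 h libraries, against 0 and 0.0434 in DMSO libraries.

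LY96 (ENSG00000154589.6, chromosome 8, 73991352 to 74029087, plus strand), the subunit of the TLR4 receptor that binds lipopolysaccharide, was scarce in most groups. In THP-1 it had 15.7 and 11.0 CPM with PMA and 5.02 and 5.15 CPM with DB2313, against 0.0626 and 0.198 CPM, which is 1 and 4 counts, in DMSO libraries. Both treated groups lay far above DMSO and did not overlap each other. The log2 fold change was 6.61 ± 0.59 (adjusted p = 1.9e-08) with PMA and 5.07 ± 0.60 (adjusted p = 3.33e-07) with DB2313, or 7.67 and 6.13 without DMSO replicate 2. BRM014 gave no such level in THP-1, with 4 and 7 counts after 24 h (adjusted p = 0.406) and 0 and 2 counts after 72 h (adjusted p = 0.39). MOLM-13 was the only line with LY96 above 1 CPM in DMSO libraries, at 1.60 and 1.76 CPM. There it had 4 and 1 counts after 24 h of BRM014 and 2 and 2 counts after 72 h, against 27 and 28 counts in DMSO libraries. The log2 fold changes were -3.52 ± 0.66 (adjusted p = 1.67e-04) at 24 h and -4.14 ± 0.68 (adjusted p = 2.17e-05) at 72 h. The 24 h value was -4.78 without BRM014 replicate 1 and -2.85 without replicate 2. In MV-4-11 it stood at 11 counts or fewer in each group and was not called (adjusted p = 0.178 at 24 h and 0.314 at 72 h).

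CD180 (ENSG00000134061.5, chromosome 5, 67179613 to 67196799, minus strand), the TLR4 relative without a TIR domain, was lost almost completely under BRM014. In MOLM-13 it had 4 and 3 counts after 24 h and 0 and 2 counts after 72 h, against 587 and 469 counts (34.8 and 29.5 CPM) in DMSO libraries. All BRM014 libraries lay far below all DMSO libraries. The log2 fold change at 24 h was -7.31 ± 0.37 (adjusted p = 3.24e-11), and the CPM ratio at 72 h was 0.00159 (95% counting interval 1.92e-04 to 0.00576, adjusted p = 3.27e-12). Those 2 counts were in replicate 2. In MV-4-11 no CD180 read was found at either BRM014 time, against 111 and 133 counts in DMSO libraries (6.17 and 6.37 CPM). With a floor of 3 counts over the group, CD180 was at least 82.8-fold lower at 24 h (adjusted p = 2.86e-09) and at least 76.3-fold lower at 72 h (adjusted p = 1.99e-09).

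In THP-1, CD180 had 0 and 2 counts after 24 h of BRM014 and none after 72 h, against 167 and 182 counts (10.5 and 9.01 CPM) in DMSO libraries. The CPM ratio at 24 h was 0.00509 (6.14e-04 to 0.0185, adjusted p = 7.88e-10), and at 72 h CD180 was at least 110.6-fold lower (adjusted p = 4.41e-10). DB2313 left 0 and 3 counts, a ratio of 0.00775 (0.00159 to 0.0229, adjusted p = 3.81e-10), with the 3 counts in replicate 2. PMA did the opposite, with 82.3 and 67.1 CPM, a log2 fold change of 3.03 ± 0.22 (adjusted p = 8.65e-09). Every DMSO and PMA library of the 3 lines thus held more CD180 than every BRM014 and DB2313 library.

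LY86 (ENSG00000112799.8, chromosome 6, 6588108 to 6654983, plus strand), which holds CD180 at the surface, fell in the same comparisons. MOLM-13 had 1.37 and 1.40 CPM after 24 h and 0.395 and 1.06 CPM after 72 h, against 24.8 and 27.5 CPM in DMSO libraries. MV-4-11 had 2.97 and 2.66 CPM after 24 h and 0 and 0.519 CPM after 72 h, against 26.5 and 24.3 CPM in DMSO libraries. In THP-1 it was at 4.55 and 2.69 CPM after 24 h and at 0.166 and 1.35 CPM after 72 h, against 19.6 and 19.6 CPM in DMSO libraries. BRM014 and DMSO libraries did not overlap in any line, and the 72 h libraries were lower than the 24 h libraries in each. In MOLM-13 that difference between the times was not called (log2 fold change -0.999 ± 0.608, adjusted p = 0.204).

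At 24 h the LY86 log2 fold changes were -4.36 ± 0.42 (adjusted p = 3.3e-08) in MOLM-13, -3.24 ± 0.37 (adjusted p = 3.77e-07) in MV-4-11 and -2.49 ± 0.36 (adjusted p = 7.77e-06) in THP-1. At 72 h they were -5.36 ± 0.45 (adjusted p = 1.76e-09), -6.56 ± 0.53 (adjusted p = 1.27e-09) and -4.82 ± 0.46 (adjusted p = 1.94e-08) in the same order of lines. The 72 h values rest on 28, 10 and 25 counts over the BRM014 group. They were -6.21 in MOLM-13 without BRM014 replicate 2, -5.66 in MV-4-11 without replicate 1, whose library held no LY86 read, and -3.94 and -6.91 in THP-1 without replicate 1 and replicate 2. With DB2313, LY86 was at 5.29 and 4.96 CPM, below DMSO, with a log2 fold change of -2.01 ± 0.34 (adjusted p = 3.64e-05). With PMA it was at 39.1 and 53.8 CPM, above DMSO, with a log2 fold change of 1.33 ± 0.31 (adjusted p = 0.00208), which DESeq2 did not call (adjusted p = 0.06).

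TLR2 (ENSG00000137462.7, chromosome 4, 153684070 to 153705702, plus strand), the shared partner of TLR1 and TLR6 in sensing lipoproteins, fell in all 6 BRM014 comparisons. MOLM-13 had 6.14 and 6.25 CPM after 24 h and 11.2 and 11.5 CPM after 72 h, against 15.5 and 13.3 CPM in DMSO libraries. MV-4-11 had 17.5 and 15.8 CPM after 24 h and 47.8 and 42.7 CPM after 72 h, against 89.9 and 86.5 CPM in DMSO libraries. THP-1 had 61.8 and 67.9 CPM after 24 h and 79.0 and 71.9 CPM after 72 h, against 131 and 128 CPM in DMSO libraries. In each line the 24 h libraries were lowest, the 72 h libraries lay between, and none of the 3 groups overlapped.

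The TLR2 log2 fold changes at 24 h and 72 h were -1.34 ± 0.13 (adjusted p = 4.9e-08) and -0.54 ± 0.12 (adjusted p = 5.6e-04) in MOLM-13. They were -2.48 ± 0.10 (adjusted p = 1.37e-13) and -1.02 ± 0.10 (adjusted p = 1.1e-08) in MV-4-11, and -1.04 ± 0.09 (adjusted p = 1.09e-08) and -0.86 ± 0.09 (adjusted p = 9.43e-08) in THP-1. Between the times, TLR2 was higher at 72 h than at 24 h in MOLM-13 (0.81 ± 0.13, adjusted p = 4.72e-05) and MV-4-11 (1.46 ± 0.10, adjusted p = 8.95e-10), while THP-1 missed the threshold (0.18 ± 0.09, adjusted p = 0.151). PMA gave 173 and 142 CPM and DB2313 gave 209 and 244 CPM, with log2 fold changes of 0.37 ± 0.09 (adjusted p = 0.00295) and 0.73 ± 0.09 (adjusted p = 5.1e-07) over THP-1 DMSO.

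TLR1 (ENSG00000174125.7, chromosome 4, 38790677 to 38856817, minus strand) and TLR6 (ENSG00000174130.12, chromosome 4, 38823715 to 38856817, minus strand) are neighbours whose models overlap. They share 57 exonic bases on the same strand, and 5.33% of the TLR1 and 4.1% of the TLR6 transcript 50-mers occur in the other, so a small part of their counts may be lost or exchanged. TLR1 fell in MOLM-13, with 1.43 and 1.27 CPM after 24 h and 0.593 and 0.692 CPM after 72 h, against 4.09 and 6.10 CPM in DMSO libraries. The log2 fold changes were -2.04 ± 0.37 (adjusted p = 1.09e-04) and -3.17 ± 0.40 (adjusted p = 7.45e-07). MV-4-11 had 0.865 and 1.33 CPM after 24 h and 1.69 and 1.04 CPM after 72 h, against 2.39 and 3.55 CPM in DMSO libraries. Both BRM014 groups lay below DMSO and overlapped each other. These gave -1.50 ± 0.38 (adjusted p = 0.00271) and -1.20 ± 0.37 (adjusted p = 0.0098). The 24 h call was lost without DMSO replicate 2 (adjusted p = 0.0555), and the 72 h call without BRM014 replicate 2 (0.124) or DMSO replicate 2 (adjusted p = 0.135).

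TLR1 was not called in THP-1 under BRM014, with 5.96 and 5.98 CPM after 24 h and 5.91 and 3.80 CPM after 72 h, against 5.76 and 4.85 CPM in DMSO libraries. The log2 fold change was 0.13 ± 0.30 (adjusted p = 0.758) at 24 h and -0.20 ± 0.31 (adjusted p = 0.602) at 72 h. It was higher with PMA, at 37.1 and 20.6 CPM, and with DB2313, at 20.5 and 30.1 CPM, which overlapped each other but not DMSO. The log2 fold changes were 2.53 ± 0.30 (adjusted p = 1.02e-06) and 2.18 ± 0.30 (adjusted p = 1.92e-06).

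TLR6 did not follow TLR1. In THP-1 it was at 14.2 and 16.0 CPM after 24 h of BRM014 and at 22.3 and 18.6 CPM after 72 h, against 12.2 and 8.51 CPM in DMSO libraries. BRM014 libraries lay above DMSO libraries at both times. The 72 h log2 fold change was 0.91 ± 0.19 (adjusted p = 3.02e-04). The 24 h value of 0.51 ± 0.19 (adjusted p = 0.0287) was not called in a fit of THP-1 alone (adjusted p = 0.0765), without BRM014 replicate 2 (0.154) or without DMSO replicate 2 (adjusted p = 0.345).

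MOLM-13 TLR6 was at 14.7 and 14.6 CPM after 24 h (log2 fold change 0.06 ± 0.19, adjusted p = 0.883) and at 6.33 and 8.25 CPM after 72 h, against 11.97 and 13.8 CPM in DMSO libraries. MV-4-11 had 4.65 and 5.04 CPM after 24 h (-0.21 ± 0.21, adjusted p = 0.455) and 2.79 and 3.06 CPM after 72 h, against 5.78 and 4.94 CPM in DMSO libraries. The 72 h falls in these lines were -1.01 ± 0.19 (adjusted p = 1.22e-04) and -0.92 ± 0.23 (adjusted p = 0.00154) on the log2 scale. With PMA, TLR6 was at 32.2 and 22.8 CPM in THP-1 (1.50 ± 0.19, adjusted p = 1.96e-06). With DB2313 it was at 15.4 and 15.2 CPM (0.50 ± 0.19, adjusted p = 0.0248). The DB2313 call was lost in a fit of THP-1 alone (0.0637) and without DMSO replicate 2 (0.32), DB2313 replicate 1 (0.091) or DB2313 replicate 2 (adjusted p = 0.0566).

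TLR5 (ENSG00000187554.12, chromosome 1, 223109406 to 223143282, minus strand), the flagellin receptor, had at most 8 counts in any MOLM-13 or MV-4-11 library. In THP-1 it was at 0.993 and 0.927 CPM after 24 h of BRM014 and at 2.54 and 2.70 CPM after 72 h, against 1.07 and 0.495 CPM in DMSO libraries. The 24 h group overlapped DMSO (0.28 ± 0.56, adjusted p = 0.71), and the 72 h group lay above it (1.69 ± 0.53, adjusted p = 0.00984). PMA gave 2.59 and 1.95 CPM (1.65 ± 0.53, adjusted p = 0.0193) and DB2313 gave 3.23 and 3.73 CPM (2.10 ± 0.52, adjusted p = 0.00149). These values lean on the 17 and 10 counts of the DMSO libraries. Without DMSO replicate 2 the 72 h value was 1.22 (adjusted p = 0.125) and the PMA value 1.18 (adjusted p = 0.195), and the PMA call was also lost without PMA replicate 1 (adjusted p = 0.0746). Without DMSO replicate 1 they were 2.30 and 2.26, and the DB2313 value was 2.71.

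Outside THP-1, TLR5 was not called in any BRM014 comparison. It had 0 and 2 counts after 24 h and 3 and 4 counts after 72 h in MOLM-13, against 1 and 6 counts in DMSO libraries. MV-4-11 had 4 and 6 counts after 24 h and 8 and 2 counts after 72 h, against 7 and 5 counts in DMSO libraries. The adjusted p-values were 0.202 and 0.722 in MOLM-13 and 0.764 and 0.873 in MV-4-11, and differences were not detectable at this depth.

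TLR8 (ENSG00000101916.11, chromosome X, 12906620 to 12923169, plus strand), the endosomal RNA receptor, marked the PMA group. It was at 43.9 and 30.6 CPM with PMA, against 1.13 and 1.34 CPM in DMSO libraries, a log2 fold change of 4.98 ± 0.37 (adjusted p = 5.53e-09). DB2313 gave 2.22 and 1.32 CPM, overlapping DMSO (0.43 ± 0.40, adjusted p = 0.349). BRM014 left 1 and 1 counts after 24 h and 0 and 2 counts after 72 h in THP-1, against 18 and 27 counts in DMSO libraries. The CPM ratios were 0.0395 (95% counting interval 0.00464 to 0.151, adjusted p = 3.76e-05) and 0.0467 (0.00549 to 0.179, adjusted p = 4.99e-05). Both counts of the 72 h group were in replicate 2.

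In MV-4-11, TLR8 had 0 and 1 counts after 24 h and 12 and 7 counts after 72 h, against 41 and 45 counts in DMSO libraries. The 24 h ratio was 0.0114 (2.86e-04 to 0.0654, adjusted p = 1.21e-06), and the 72 h log2 fold change was -2.13 ± 0.44 (adjusted p = 4.61e-04). The MV-4-11 72 h group was above the 24 h group by a CPM ratio of 20.6 (3.28 to 857, adjusted p = 0.00223), which rests on 1 count at 24 h. MOLM-13 had 1 TLR8 read in 6 libraries, so no fold is given. TLR8 has an antisense neighbour, TLR8-AS1, and LY86 has LY86-AS1. Neither shares exonic bases with the receptor gene, and the strand setting of the counting is not given in the sources used here.

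Several effects of BRM014 differed between the 3 lines. An F test of both differences between lines called 6 of the 10 genes at 24 h (43.5% of all genes tested) and 5 at 72 h (52.9%). The share of the 10 genes was above the background at 24 h and near it at 72 h. At 72 h the called genes were TLR4 (adjusted p = 2.28e-10), TLR6 (6.32e-06), CD14 (2.7e-05), TLR1 (2.66e-04) and TLR2 (adjusted p = 0.0316). The TLR2 call was lost when any 1 of 6 of the 8 libraries of MOLM-13 and MV-4-11 was left out (adjusted p 0.0534 to 0.145). At 24 h they were TLR2 (2.13e-07), TLR4 (4.08e-06), CD14 (7.38e-05), TLR1 (0.00216), LY96 (0.0094) and LY86 (adjusted p = 0.0326). The LY86 call was lost with DESeq2 (adjusted p = 0.16) and when any 1 of 6 of the 8 libraries of MOLM-13 and THP-1 was left out (adjusted p 0.0665 to 0.138). That of LY96 was lost without THP-1 BRM014 24 h replicate 2 (adjusted p = 0.0638). CD180 was not called at either time (adjusted p = 0.403 and 0.626), nor were TLR5 (0.368 and 0.103) and TLR8 (adjusted p = 0.696 and 0.142). LY86 and LY96 missed the threshold at 72 h (adjusted p = 0.248 and 0.0751), as did TLR6 at 24 h (adjusted p = 0.101). For TLR4 and TLR6 at 72 h the lines moved in opposite directions, each past the threshold: TLR4 rose in MOLM-13 and fell in MV-4-11 and THP-1, while TLR6 rose in THP-1 and fell in MOLM-13 and MV-4-11.

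The times of BRM014 were also compared directly. In MOLM-13, 2 were higher and 1 lower at 72 h than at 24 h (43.5% of all genes called, 20.8% higher and 22.7% lower): TLR4 and TLR2, given above, and TLR6, which fell by 1.07 ± 0.19 on the log2 scale (adjusted p = 1.14e-04). In MV-4-11, 3 were higher and 2 lower (35.4% called, 18.6% higher and 16.9% lower). CD14 rose by 2.25 ± 0.32 (adjusted p = 9.47e-06), along with TLR2 and TLR8, while LY86 fell by 3.32 ± 0.65 (adjusted p = 3.7e-04) and TLR6 by 0.71 ± 0.23 (adjusted p = 0.0182). The LY86 value was -2.42 without BRM014 72 h replicate 1, and the TLR6 call was lost without BRM014 24 h replicate 2 (0.097), 72 h replicate 1 (0.106) or 72 h replicate 2 (adjusted p = 0.0604). In THP-1, 2 were higher and 1 lower (32.7% called, 16.2% higher and 16.5% lower). CD14 rose by 2.04 ± 0.15 (adjusted p = 5.71e-09) and TLR5 by 1.40 ± 0.51 (adjusted p = 0.0396), and LY86 fell by 2.32 ± 0.52 (adjusted p = 0.00188). Leaving out any 1 of the 4 libraries ended the TLR5 call (adjusted p 0.106 to 0.161), and the LY86 value was -1.45 and -4.42 without 72 h replicate 1 and replicate 2. The members called neither way in these comparisons included CD180, at or near 0 at both times.

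BRM014 and DB2313, both applied to THP-1 for 72 h but at 1 µM and 3 µM, were compared directly. With BRM014, 7 of the 10 genes were lower than with DB2313 and 0 higher (61.3% of all genes called, 30.9% lower and 30.4% higher). TLR4 differed by -3.51 ± 0.19 (adjusted p = 3.06e-12), TLR1 by -2.38 ± 0.30 (adjusted p = 8.32e-07), CD14 by -2.02 ± 0.14 (adjusted p = 1.38e-10) and TLR2 by -1.60 ± 0.09 (adjusted p = 9.03e-12) on the log2 scale. LY86 differed by -2.80 ± 0.50 (adjusted p = 7.08e-05), or -1.93 and -4.90 without BRM014 replicate 1 and replicate 2. LY96 had 2 counts with BRM014 against 204 with DB2313, a CPM ratio of 0.0114 (0.00138 to 0.0418, adjusted p = 1.42e-07). TLR8 had 2 against 70 counts, a ratio of 0.0333 (0.00396 to 0.125, adjusted p = 8.69e-06). The BRM014 counts of both genes were all in replicate 2. TLR5 (-0.42 ± 0.47, adjusted p = 0.455) and TLR6 (0.41 ± 0.18, adjusted p = 0.0566) missed the threshold. CD180 had 0 against 3 counts, too few for a fold.

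Scaled by exon length, the 10 genes together were at 5.83 ± 0.32 CPM per kb after 24 h of BRM014 and 6.04 ± 0.81 after 72 h in MOLM-13, against 36.1 ± 1.3 in DMSO libraries (mean ± SD, n = 2). MV-4-11 had 7.22 ± 0.07 and 12.1 ± 0.6 CPM per kb, against 43.3 ± 2.0 in DMSO libraries. THP-1 had 27.7 ± 1.4 after 24 h, 52.1 ± 1.6 after 72 h, 188 ± 18 with PMA and 199 ± 8 with DB2313, against 48.5 ± 0.6 CPM per kb in DMSO libraries. LY86 was the largest entry in DMSO libraries of MOLM-13 (57.7% of the summed length-scaled level) and MV-4-11 (46.8%), and TLR2 in those of THP-1 (51.2%), where LY86 gave 32.2% and CD14 1.81%. CD14 gave 60.5% of the sum in THP-1 after 72 h of BRM014, 63.9% with DB2313 and 30.6% with PMA. TLR2 gave 71.9% in MV-4-11 after 72 h of BRM014, and TLR6 41.6% in MOLM-13 after 24 h. These shares depend on the exon lengths used. Without that scaling, mean TLR2 was above LY86 in MV-4-11 DMSO libraries (88.17 against 25.4 CPM). Likewise, mean CD180 was above LY86 in MOLM-13 DMSO libraries (32.15 against 26.14 CPM). Mean TLR2 was above CD14 in THP-1 BRM014 72 h libraries (75.42 against 59.35 CPM).

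**Figure D3:**
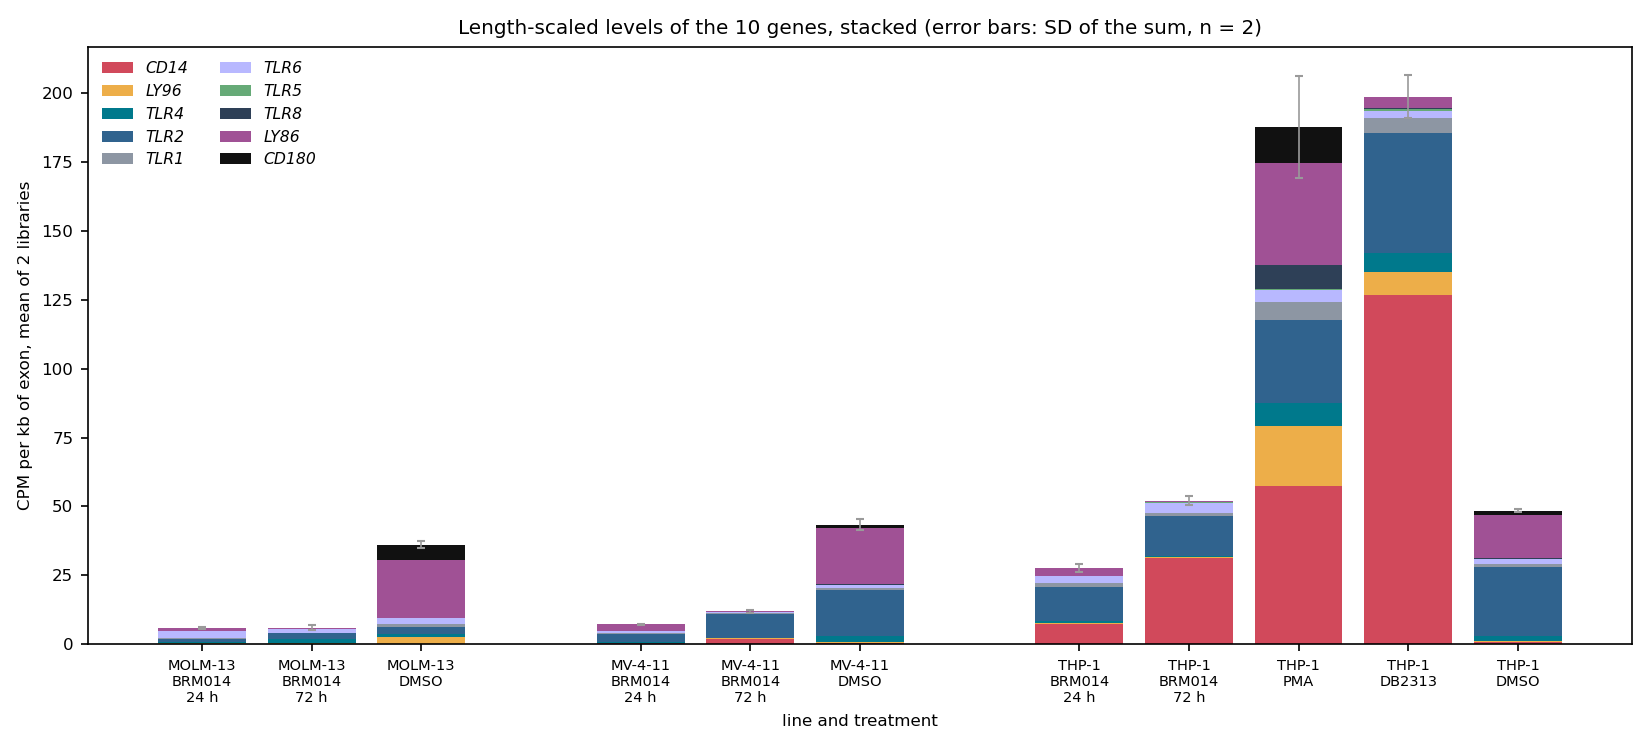
Mean length-scaled level (CPM per kb of exon) of the 10 genes, stacked by gene, for each line and treatment; error bars are the SD of the sum over 2 libraries. THP-1 after 72 h of BRM014 and THP-1 DMSO have similar sums of 52.1 and 48.5, the first mostly CD14 and the second mostly TLR2 and LY86, while PMA and DB2313 reach 188 and 199.

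The genes whose pattern over the 11 group means of log2(CPM + 1) was most like each member were named as a description, since the groups share lines and DMSO libraries. For CD14 they were EXTL1 (Pearson r = 0.985), BATF2 (0.975) and DOK6 (0.970), and for LY96 they were EMP1 (0.983), RASAL1 (0.983) and HAVCR2 (0.968). For LY86 they were LY75 (0.972), MS4A7 (0.955) and OXNAD1 (0.940), and for CD180 they were DCANP1 (0.941), TIFAB (0.929) and SLC9C2 (0.923). For TLR8 they included SPP1 (0.966) and SAMD9L (0.956). The best matches of TLR1, TLR2, TLR4, TLR5 and TLR6 were MEI1 (0.976), MAPKAPK2 (0.982), MYBPC3 (0.932), DOK6 (0.988) and PCED1B-AS1 (0.916). Among the members themselves, r over the same 11 groups was highest between TLR5 and CD14 (0.968) and between LY86 and CD180 (0.906), and lowest between CD14 and CD180 (0.012).

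Other genes of the pathway were followed in 6 lists, each read against the share of all genes tested that was called, which was given above for each comparison. These lists too were chosen with earlier results known, so their shares are a description. The share of all genes called the same way in every comparison was not counted. A list of 9 genes grouped here as restraints on the pathway included TOLLIP, the NF-κB inhibitor NFKBIA, the deubiquitinase CYLD and PELI1. Of these 9, 6 were higher and 2 lower in MOLM-13 at the earlier BRM014 time, and 5 higher and 2 lower at the later one. The counts were 5 higher and 1 lower, then 6 and 0, in MV-4-11, and 6 and 1, then 7 and 2, in THP-1. PMA gave 5 higher and 1 lower, and DB2313 9 higher and 0 lower. TOLLIP was among the higher genes in all 8 comparisons (log2 fold changes 0.51 to 1.62), as were CYLD (0.64 to 2.50) and NFKBIA (0.36 to 2.79). SOCS1, a cytokine signalling inhibitor, reached 21.8 and 23.7 CPM with DB2313, against 1.19 and 0.891 CPM in THP-1 DMSO libraries (4.39 ± 0.20, adjusted p = 3.3e-13). The share of the list called higher was 55.6% to 77.8% over the 6 BRM014 comparisons, against 22.7% to 30.9% of all genes. It was 55.6% against 18.9% with PMA and 100% against 35.9% with DB2313. The list's median log2 fold change was 0.49 to 1.11 over the 6 BRM014 comparisons, against 0 to 0.06 for all genes.

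Of 20 signalling genes tested of 21, 7 were higher and 2 lower in MOLM-13 at 24 h of BRM014, and 12 higher and 2 lower at 72 h. MV-4-11 had 9 higher and 1 lower, then 10 higher and 2 lower, and THP-1 had 4 in each direction, then 5 in each. PMA gave 6 higher and 1 lower, and DB2313 10 higher and 5 lower. The share called in either direction was near that of all genes or below it at 24 h (45% against 46.2% in MOLM-13, 50% against 46.1% in MV-4-11 and 40% against 50% in THP-1). At 72 h it was 70% against 59.7%, 60% against 54.5% and 50% against 58.9% in the same order of lines. With PMA it was 35% against 36.1%, and with DB2313 75% against 65.4%. The share called higher was 35% and 60% in MOLM-13 at 24 h and 72 h, against 22.7% and 30.3% of all genes. In MV-4-11 that share was 45% and 50%, against 23.6% and 28.4%, and in THP-1 20% and 25%, against 25.9% and 30.9%. PMA gave 30% higher, against 18.9%, and DB2313 50%, against 35.9%. TICAM1, the adaptor of TLR3 and TLR4 that leads to interferon, was higher in all 8 comparisons (0.60 to 1.46). IRF5, a transcription factor activated through MYD88, fell in all 6 BRM014 comparisons (log2 fold changes -3.18 to -0.61) and with DB2313 (-0.53 ± 0.11, adjusted p = 2e-04). In MOLM-13 it was at 4.45 and 3.51 CPM after 72 h of BRM014, against 29.6 and 34.0 CPM in DMSO libraries. IRAK2, a kinase of the MYD88 complex, was at 17.4 and 17.1 CPM after 72 h of BRM014 and at 38.6 and 40.5 CPM with DB2313, against 3.13 and 2.33 CPM in THP-1 DMSO libraries.

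Of 5 chaperones of the receptors, 4 were lower and 1 higher at both times of BRM014 in MOLM-13, 2 lower and 0 higher at both times in MV-4-11, and 4 lower and 1 higher, then 4 lower and 0 higher, in THP-1. PMA gave 3 higher and 0 lower, and DB2313 0 higher and 3 lower. The share called lower was 80% in the BRM014 comparisons of MOLM-13 and THP-1, against 23.5% to 29.4% of all genes. In MV-4-11 the share called in either direction was 40%, below the 46.1% and 54.5% of all genes. It was 60% with PMA, against 36.1% of all genes, and 60% with DB2313, against 65.4%. UNC93B1, which carries the nucleic acid sensing receptors to endosomes, fell in all 6 BRM014 comparisons (log2 fold changes -1.65 to -0.72) and rose by 0.61 ± 0.08 with PMA (adjusted p = 4.4e-06). In THP-1 it was at 71.7 and 75.7 CPM after 72 h of BRM014, against 194 and 187 CPM in DMSO libraries.

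Of the Toll-like receptors outside the set, 3 of 4 were tested. TLR9, the receptor for unmethylated CpG DNA, fell in all 6 BRM014 comparisons (log2 fold changes -3.72 to -0.92). It was at 50.9 and 55.3 CPM with DB2313 and at 1.80 and 1.79 CPM with PMA, against 4.82 and 5.20 CPM in THP-1 DMSO libraries (3.33 ± 0.25, adjusted p = 3.28e-10, and -1.39 ± 0.28, adjusted p = 5.13e-04). TLR7, the endosomal relative of TLR8, was at 19.9 and 12.9 CPM with PMA, against 0 and 0.495 CPM in DMSO libraries. Of these 3 receptors, 1 was lower in each BRM014 comparison except MOLM-13 at 72 h, where 2 were, and none was higher. PMA gave 1 higher and 1 lower, and DB2313 3 higher. A call for 1 of 3 genes, or 33.3%, is below the 46.1% to 58.9% of all genes called in those 5 BRM014 comparisons, and 2 of 3 in MOLM-13 at 72 h is near the 59.7% of all genes.

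Ligand transfer and co-receptor genes were tested for 3 of 4. In MOLM-13, 0 were higher and 1 lower at 24 h of BRM014, then 2 higher and 0 lower at 72 h. MV-4-11 had 0 higher and 2 lower, then 2 higher and 1 lower, and THP-1 had 2 higher and 0 lower at both times. PMA gave 3 higher and 0 lower, and DB2313 2 higher and 1 lower. With 3 genes the share called was 33.3% in MOLM-13 at 24 h, against 46.2% of all genes, and 66.7% or 100% in the other BRM014 comparisons, against 46.1% to 59.7%. It was 100% with PMA and with DB2313, against 36.1% and 65.4% of all genes. ITGAM, the integrin chain CD11b, was at 230 and 218 CPM with PMA and 428 and 438 CPM with DB2313, against 30.8 and 24.5 CPM in THP-1 DMSO libraries. CD36, a scavenger receptor that works with TLR2, rose to 578 and 438 CPM with PMA and fell to 13.8 and 14.3 CPM with DB2313, against 34.2 and 30.4 CPM in THP-1 DMSO libraries (4.06 ± 0.17, adjusted p = 1.49e-13, and -1.27 ± 0.17, adjusted p = 1.94e-06).

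Early output genes, the cytokine and feedback genes that Toll-like receptors switch on, were tested for 7 of 11. In MOLM-13, 1 was higher and 1 lower at 24 h of BRM014, then 3 higher and 1 lower at 72 h. MV-4-11 had 3 higher and 2 lower, then 6 higher and 0 lower, and THP-1 had 3 higher and 0 lower, then 3 higher and 2 lower. PMA gave 5 higher and 0 lower, and DB2313 5 higher and 1 lower. The share called was 28.6% and 57.1% in MOLM-13 at 24 h and 72 h, against 46.2% and 59.7% of all genes, and 71.4% and 85.7% in MV-4-11, against 46.1% and 54.5%. In THP-1 it was 42.9% and 71.4%, against 50% and 58.9% of all genes. It was 71.4% with PMA and 85.7% with DB2313, against 36.1% and 65.4%. In MV-4-11, IL1B was at 25.9 and 26.3 CPM after 72 h of BRM014, against 4.28 and 4.46 CPM in DMSO libraries. PTGS2, which makes prostaglandins, was at 40.0 and 38.0 CPM there, against 2.56 and 4.36 CPM. CXCL8, a neutrophil chemokine, fell to 0.846 and 0.566 CPM with DB2313, against 23.2 and 15.8 CPM in THP-1 DMSO libraries (-4.85 ± 0.41, adjusted p = 2.46e-09). IL1B was at 28.0 and 24.1 CPM with DB2313, against 0.689 and 0.940 CPM in the same DMSO libraries. No ligand was named among the treatments in the labels, so these are levels without added stimulus as far as the labels say.

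**Figure D4:**
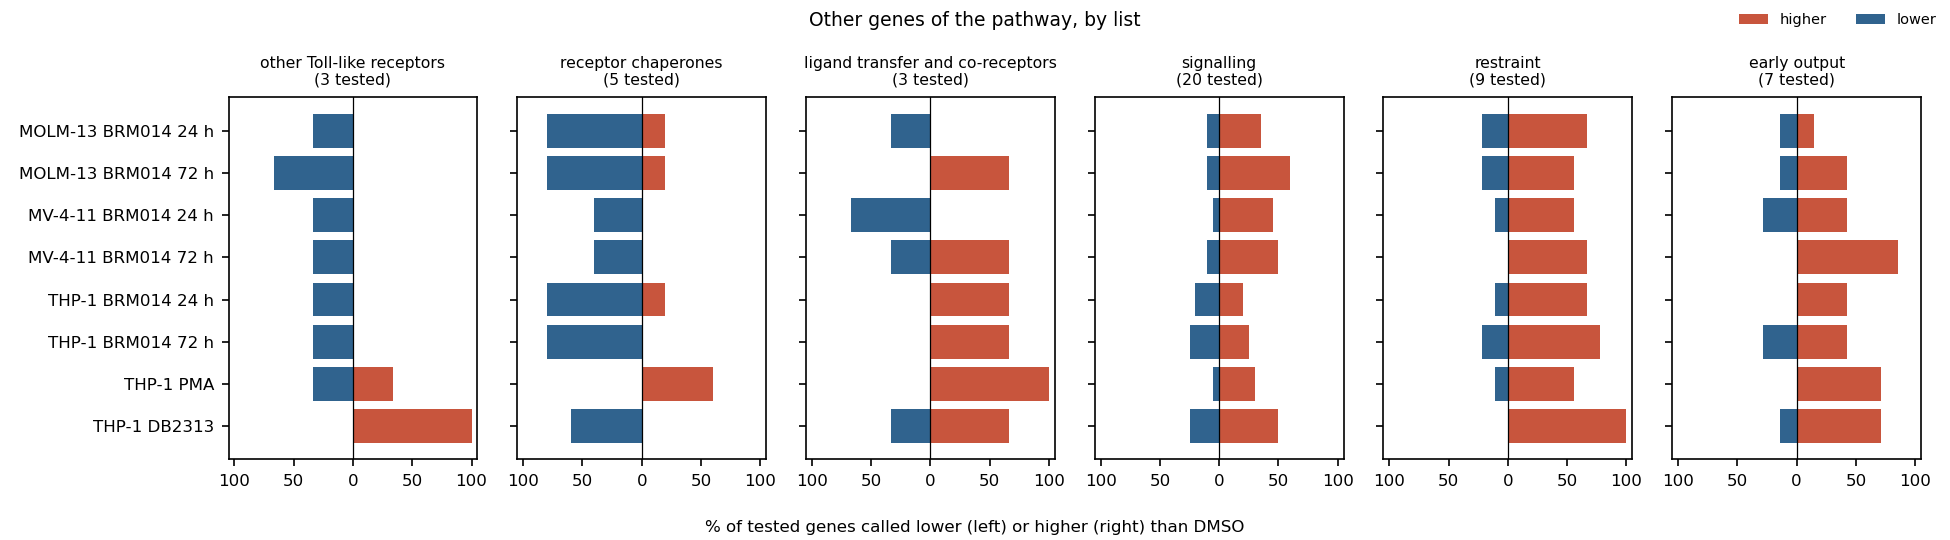
Percent of the tested genes of each list called lower (left of 0) or higher (right of 0) than DMSO of the same line, for 8 comparisons. Genes grouped as restraints on the pathway lie mostly to the right in every comparison, and receptor chaperones mostly to the left under BRM014 in MOLM-13 and THP-1, with 40% to the left in MV-4-11.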

How the data were processed

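The authors deposited 1 table of read counts per gene symbol for each of 22 libraries, whole numbers with no normalization. HISAT2 2.1.0, HTSeq, DESeq2 and the build hg38 are listed in the submitters' processing notes. The role of each, the gene annotation and the strand setting are not given in the sources used here. The 5 summary entries per file entered neither library sizes nor tests. Reads in no feature made up at most 19.2% of a file and ambiguous reads 3.04% to 3.82%.

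CPM scales each count to a fixed total of reads in genes. The 22 libraries were fitted together (edgeR 4.0.16 under R 4.3.3), each group having its own coefficient, after TMM scaling and filterByExpr (minimum count 10), which kept 16794 genes. Each contrast used edgeR's quasi-likelihood F test with p-values adjusted by Benjamini-Hochberg over those genes, and the SE is the log2 fold change over the square root of F. Where a group had 1 to 3 counts, the CPM ratio is given with its exact 95% Clopper-Pearson interval, and where it had 0, a bound against 3 counts over the group. These cover counting error only, since reads carried no molecular identifiers in these counts. The floor of 3 counts in a single library is 0.139 to 0.189 CPM. Replicates of a group differed by more than sampling noise (chi-square per degree of freedom 3.14 to 30.4), so none was counted as a duplicate.

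Gene positions and exon lengths came from GENCODE v29 (GRCh38) by symbol, and promoters from RefSeq (GRCh38.p14), matched for 8 of 10 genes. The members, the pathway and marker lists and the comparisons were chosen with earlier results of these data known. All members are named; of each pathway list, up to 3 called genes with the largest change per comparison could be named, and genes called in all comparisons of a kind were singled out after their values were seen. The 3 genes most like a member are those with the highest Pearson r, and 1 of those for TLR8 is not reported here. Alternatives were library sizes alone, DESeq2 1.42.0, no filter, a fit of the lines compared alone, the replicate number as a term, and leaving out each library. The fit was tested on simulated counts with changes set in THP-1 BRM014 72 h libraries. It recovered 62 of 100 genes changed 2-fold and 76 of 100 changed 4-fold, and called 8 unchanged genes, with 15859 genes tested. A changed gene that the filter removed from the simulated counts was taken as not recovered. The base level of each gene was its mean over the 22 libraries and not its THP-1 level. These rates therefore mix loss to the filter with missed calls. So a gene that was not called may still have changed.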

Additional observations from a re-analysis of the deposited data

Results flagged for a closer look

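The effect of BRM014 differed between the 3 lines, by an F test of both differences between lines (edgeR, Benjamini-Hochberg), for 6 of the 10 genes at 24 h. Of all genes tested, 43.5% were called in that test. TLR2 (adjusted p = 2.13e-07) fell in all lines and most in MV-4-11, and TLR4 (adjusted p = 4.08e-06) did likewise. CD14 (adjusted p = 7.38e-05) rose in THP-1 and was not called in the other lines. TLR1 (adjusted p = 0.00216) fell in MOLM-13 and MV-4-11 and was near its DMSO level in THP-1. LY96 (adjusted p = 0.0094) fell in MOLM-13 only among the calls, and without THP-1 BRM014 24 h replicate 2 the difference was not called (adjusted p = 0.0638). LY86 (adjusted p = 0.0326) fell in all lines, and the difference was not called by DESeq2 (adjusted p = 0.16) or when any 1 of 6 of the 8 libraries of MOLM-13 and THP-1 was left out (adjusted p 0.0665 to 0.138).

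At 72 h the effect differed for 5 of the 10 genes, a share near the 52.9% of all genes called. TLR4 (adjusted p = 2.28e-10) rose in MOLM-13 and fell in the other lines, TLR6 (adjusted p = 6.32e-06) rose in THP-1 and fell in the other lines, and CD14 (adjusted p = 2.7e-05) was called higher in all lines. In MOLM-13 this rests on 13 counts against 1, with a ratio of 10.9 (95% counting interval 1.64 to 464), and was not called without BRM014 72 h replicate 2 or DMSO replicate 1 (adjusted p = 0.194 in each case). TLR1 (adjusted p = 2.66e-04) fell in MOLM-13 and MV-4-11 and was not called in THP-1. TLR2 (adjusted p = 0.0316) fell in all lines, and the difference was not called when any 1 of 6 of the 8 libraries of MOLM-13 and MV-4-11 was left out (adjusted p 0.0534 to 0.145). The part of time in culture in these differences cannot be told apart from BRM014, since each line has 1 DMSO group.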

How the results depend on the processing

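The number of the 10 genes called was the same within 1.5 times in all comparisons under library-size scaling, DESeq2, no filter, a fit of the lines compared alone and the replicate block, except for MOLM-13 BRM014 72 h against 24 h, with 5 calls without the filter and 5 in a fit of that line alone, against 3. TLR1 and LY86 were the added calls. With the replicate block the number was 8 for BRM014 72 h against DMSO in each line and 10 for PMA, as without it. Libraries with the same number did not deviate together (correlations of -0.117 to 0.085 over 55 pairs of groups), so they share only a number. Scaled by library size, the median log2 fold change of all genes was 0.157 in MOLM-13 at 72 h, against 0 with TMM, the only comparison where it moved by over 0.1. No member reversed under that scaling.

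Leaving out 1 library at a time changed the sign of some fold changes, none of them called. Against DMSO, the ranges were -0.057 to 0.179 for TLR6 in MOLM-13 at 24 h, -1.25 to 1.34 for TLR5 in MOLM-13 at 72 h, -0.81 to 0.32 for CD14 in MV-4-11 at 24 h, -1.59 to 0.51 for TLR5 in MV-4-11 at 72 h, -0.19 to 0.90 for TLR5 in THP-1 at 24 h, -0.563 to 0.079 for TLR1 in THP-1 at 72 h and -0.005 to 0.79 for TLR8 with DB2313. For BRM014 72 h against 24 h they were -0.18 to 1.35 for CD14 and -1.30 to 0.64 for LY96 in MOLM-13, -0.086 to 0.647 for TLR1, -1.22 to 0.88 for TLR5 and -0.86 to 4.38 for LY96 in MV-4-11, and -0.18 to 0.27 for TLR4 and -3.03 to 1.17 for TLR8 in THP-1. The cause was not tested, and values at counts near 0 are limited by depth.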
